A study of Mus musculus with 8 samples.

Results

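A group of 10 transcription factors and neuronal proteins that mark deep cortical layers were followed in newborn mice with conditionally deleted chromatin remodelling subunits. They were found by matching the Ensembl identifiers of the count files to the mouse symbols Tbr1, Bcl11b, Fezf2, Sox5, Foxp2, Tle4, Crym, Ldb2, Zfpm2 and Nr4a2. Each was found among the 48709 genes in the files, and all 10 were among the 16525 that passed the filter on low counts. The mutants, dcKO_hGFAP-Cre, were floxed on both alleles of Smarcc1 (BAF155) and Smarcc2 (BAF170), scaffold subunits of the BAF chromatin remodelling complex, and expressed Cre under a human GFAP promoter. That promoter is active in the radial glial progenitors of the dorsal telencephalon, which the study reports for a late embryonic stage. Cells of other origin in the dissected tissue may keep both genes, and so may neurons born before that stage. Which of the neurons had lost them was not tested. The study describes the controls as heterozygous for each floxed allele with the same Cre, so that both groups carry Cre; in the labels they appear as wild type. Cortex was taken at postnatal day 3 (P3) on a C57BL/6J background, and each group held 4 samples.

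Neurons of layer 6 send axons mainly to the thalamus, neurons of layer 5 send them to the striatum, brainstem and spinal cord, and the subplate lies beneath both. Their identities are set by transcription factors that restrain each other. Fezf2 and its target Bcl11b (Ctip2) specify subcerebral neurons of layer 5, and Tbr1 and Sox5 hold layer 6 and subplate neurons to a corticothalamic fate. Several of these genes are not confined to deep layers. Bcl11b and Foxp2 are also strongly expressed in the projection neurons of the striatum, the nucleus that lies next to the cortex, and Nr4a2 is expressed in the claustrum and in dopamine neurons of the midbrain.

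Upstream sequence was examined for motifs that factors of this network, or their relatives, bind. RefSeq promoter windows on GRCm38.p6 were at hand for Nr4a2, Tbr1, Sox5, Bcl11b, Fezf2 and Tle4. Foxp2, Crym, Ldb2 and Zfpm2 were not matched. The 250 bases before the start site were searched on both strands for AACAAT (SOX factors), GGTGTGA (T-box factors such as Tbr1), AAAGGTCA (the NBRE, bound by Nr4a factors), TGTTTAC (forkhead factors) and CAGATG (E-box). Windows that hold no annotated exon base are shown for Nr4a2 and Sox5, whose counts fell in the mutants as described below, and for the upstream start of Tle4, whose counts did not pass the test. All 3 lie on the minus strand and are written from 5′ to 3′, with a motif match in capitals.
Nr4a2, chr2:57124004-57124253: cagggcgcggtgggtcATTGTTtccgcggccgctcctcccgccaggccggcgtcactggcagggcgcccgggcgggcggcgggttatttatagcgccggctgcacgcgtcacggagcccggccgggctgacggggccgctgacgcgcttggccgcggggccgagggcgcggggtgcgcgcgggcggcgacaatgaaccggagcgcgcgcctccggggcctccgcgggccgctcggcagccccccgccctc
Sox5, chr6:143947107-143947356: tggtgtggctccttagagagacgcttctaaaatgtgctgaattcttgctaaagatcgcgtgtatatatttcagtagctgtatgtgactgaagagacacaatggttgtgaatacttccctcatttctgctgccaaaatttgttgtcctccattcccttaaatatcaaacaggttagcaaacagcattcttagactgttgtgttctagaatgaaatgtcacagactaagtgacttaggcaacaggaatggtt
Tle4, chr19:14598184-14598433: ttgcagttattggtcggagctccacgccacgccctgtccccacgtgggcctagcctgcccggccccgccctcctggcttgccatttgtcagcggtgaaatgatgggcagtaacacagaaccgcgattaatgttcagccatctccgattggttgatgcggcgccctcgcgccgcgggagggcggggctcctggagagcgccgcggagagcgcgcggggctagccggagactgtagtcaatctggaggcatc
The Nr4a2 window held 1 SOX match, at position -234 from the start site, on the reverse strand of the letters searched. The SOX letters were also found once in the window of Tbr1, at position -96, and once in that of a second start of Tle4, at position -71; both windows hold annotated exon bases and are not printed. So 1 of the 3 genes with a match fell and the other 2 did not pass the test. No letters of the 5 motifs were found in the windows of Sox5, Bcl11b, Fezf2 and the upstream start of Tle4. The SOX letters were present in 9.42% of the 32851 windows of this length over all genes, so a single match in a window of this kind is not rare. The GC content was 80.0% in Nr4a2, 39.6% in Sox5 and 65.2% in Tle4. The Sox5 window belongs to 1 of several start sites of that gene, which runs in the annotation from 143828425 to 144781977 on chromosome 6.

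The control libraries held 21126713 to 31805395 counts and the dcKO_hGFAP-Cre libraries 22002784 to 32110285. Expression is given as CPM, the normalised count scaled to a common library total with the TMM method of edgeR. Genes were compared by the quasi-likelihood F test in edgeR, and the Benjamini-Hochberg adjustment ran across the 16525 genes. At an adjusted p under 0.05, 6202 genes were called (37.5%), of which 3128 were lower (18.9%) and 3074 higher (18.6%) in the mutants. With library totals in place of TMM scaling the split was 2102 lower and 4584 higher, and the median log2 fold change over all genes moved from 0.02 to 0.15. Smarcc1 fell by 0.97 and Smarcc2 fell by 0.77 on the log2 scale (adjusted p = 5.44e-06 and 2.28e-05, edgeR), with all 4 mutants below all 4 controls for both. Mitochondrial genes took 2.06% to 3.23% of counts in control and 3.57% to 5.47% in the mutants, and its part in the results was not tested. Nothing in the labels says which animals or litters the samples came from, so p-values measure the spread between these samples.

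Of the 10 deep-layer genes, 6 were lower in the mutants and 0 higher. Fezf2, Sox5, Crym, Ldb2, Zfpm2 and Nr4a2 fell, while Tbr1, Bcl11b, Foxp2 and Tle4 did not pass the test. At an unadjusted p under 0.05 (edgeR), 1 of the 10 was higher (Foxp2), against 4001 of all 16525 genes tested. By DESeq2 and by limma-voom 0 of the 10 were higher at an adjusted p under 0.05. The median log2 fold change was -0.60 over the 10 genes, against 0.02 over all genes tested. For all 6 genes that fell, every mutant lay below every control, a pattern that 17.7% of all genes tested showed in this direction and 16.7% in the other. In an exact two-sided permutation test over the 70 arrangements of 4 samples against 4, each of the 6 gave p = 0.0286, the smallest value this design allows. In bulk cortex, fewer neurons of a type and less RNA per neuron cannot be told apart.

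**Figure D1:**
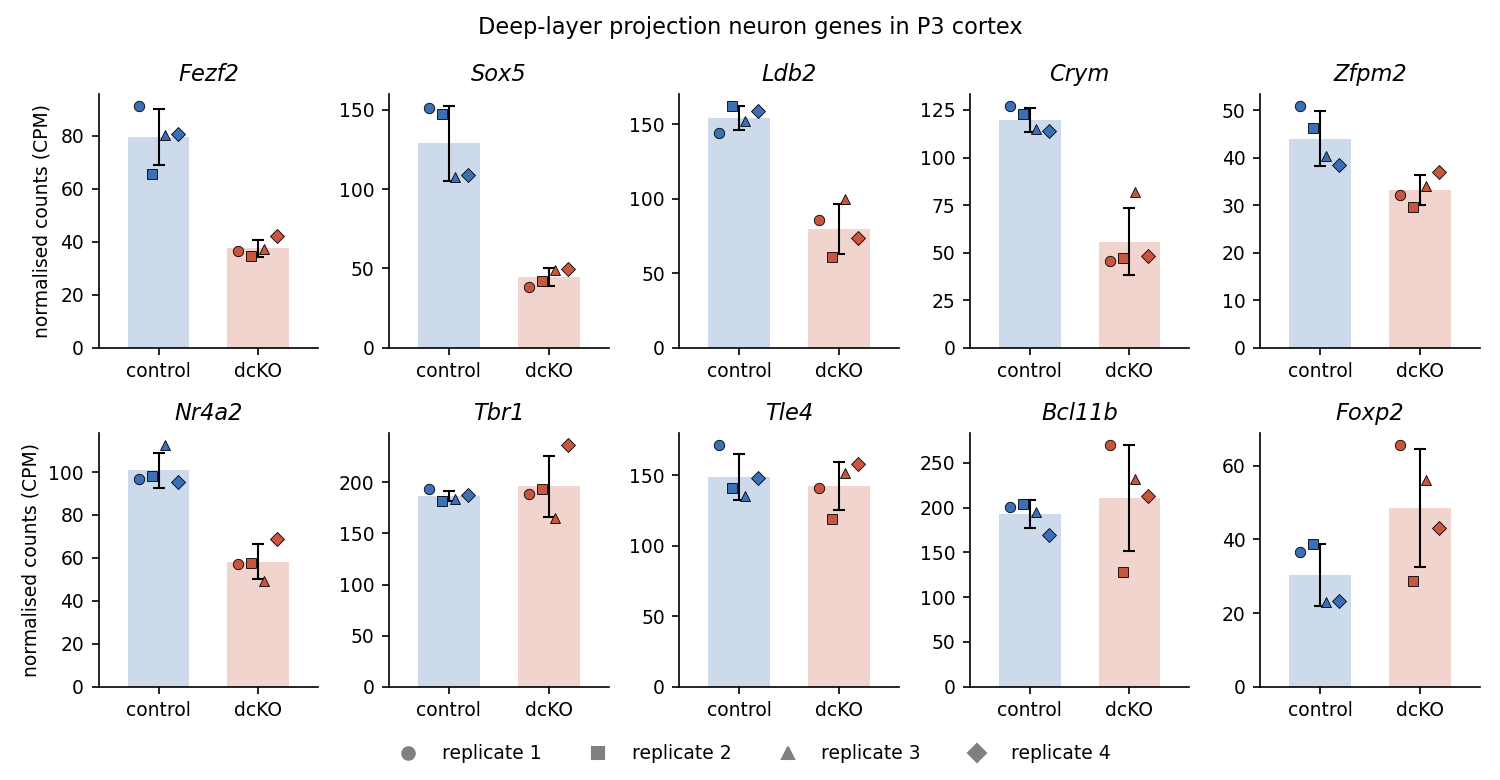
Normalised counts (CPM, vertical axes starting at 0) of the 10 deep-layer genes in the 4 control and 4 dcKO_hGFAP-Cre samples. Bars give the mean, error bars the SD (n = 4) and each symbol 1 replicate. The 4 mutants lie below all controls for Fezf2, Sox5, Ldb2, Crym, Zfpm2 and Nr4a2, and the groups overlap for Tbr1, Tle4, Bcl11b and Foxp2.

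Sox5, a high-mobility-group factor that holds back subcerebral fate in early-born neurons, showed the largest fall of the 10. The counts of Sox5 (ENSMUSG00000041540) were 151, 148, 108 and 109 CPM in control replicates 1 to 4 and 38.4, 41.7, 49.2 and 49.7 CPM in mutant replicates 1 to 4. The groups were far apart, and the controls themselves split into a higher pair, both from lane 5, and a lower pair from lanes 6 and 7. The log2 fold change of Sox5 was -1.52 ± 0.13 (SE), a fold of 0.348 with a 95% interval of 0.285 to 0.425 (adjusted p = 7.61e-06, edgeR). Within lanes the log2 ratio of mutant to control for Sox5 was -1.90 in lane 5, -1.13 in lane 6 and -1.13 in lane 7. Sox5 shares 1330 exon bases (9.25% of its exon length) with the antisense gene Sox5os1. The strand setting of the counting is not given in the sources used here, but Sox5os1 itself had at most 1 count in any sample.

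Fezf2, the zinc finger factor that specifies subcerebral projection neurons, lies on chromosome 14 from 12342094 to 12348189 (mm10, ENSMUSG00000021743). Its counts were 91.4, 65.7, 80.3 and 80.6 CPM in the controls and 36.4, 34.5, 37.2 and 42.1 CPM in the mutants. The mutants were close to each other and all lay below the lowest control. Fezf2 had a log2 fold change of -1.08 ± 0.11 (SE, adjusted p = 1.49e-05, edgeR), a fold of 0.472 with a 95% interval of 0.403 to 0.554. The ratio was alike across lanes, at -1.15, -1.11 and -0.94 on the log2 scale in lanes 5, 6 and 7.

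Nr4a2 (Nurr1), a nuclear receptor of subplate and deep layer 6 neurons, lies on chromosome 2 from 57106830 to 57124003 (ENSMUSG00000026826). It was counted at 96.9, 98.2, 113 and 95.4 CPM in the controls and at 57.0, 57.6, 49.3 and 69.0 CPM in the mutants. Mutant replicate 4 was the highest of its group and still below every control. Its log2 fold change was -0.79 ± 0.10 (SE, adjusted p = 1.19e-04, edgeR), and within lanes 5, 6 and 7 it was -0.77, -1.19 and -0.47.

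Zfpm2 (Fog2), a zinc finger cofactor of GATA factors that is found in corticothalamic neurons, showed the smallest fall. It lies on chromosome 15 from 40655035 to 41104592 (ENSMUSG00000022306). Zfpm2 stood at 51.0, 46.3, 40.3 and 38.5 CPM in the controls and at 32.2, 29.6, 34.1 and 36.9 CPM in the mutants. The groups did not overlap, but the highest mutant lay just under the lowest control. The log2 fold change of Zfpm2 was -0.41 ± 0.11 (SE, adjusted p = 0.0111, edgeR). Within lanes the log2 ratio for Zfpm2 was -0.66, -0.24 and -0.06, the last of these between 1 control and 1 mutant. The call for Zfpm2 was lost with library totals in place of TMM scaling (log2 fold change -0.29, adjusted p = 0.0594, edgeR).

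Crym and Ldb2 are not core factors of the network but mark subcerebral neurons. Crym (ENSMUSG00000030905, chromosome 7 from 120186380 to 120202111) encodes mu-crystallin, a thyroid hormone binding protein. Crym was at 127, 123, 115 and 114 CPM in the controls and at 45.4, 47.2, 82.1 and 48.3 CPM in the mutants. Mutant replicate 3 stood well above the other 3 mutants and below all controls. For Crym the log2 fold change was -1.10 ± 0.18 (SE, adjusted p = 9.21e-04, edgeR), and within lanes 5, 6 and 7 it was -1.43, -0.49 and -1.24. The lane 6 value rests on that replicate alone.

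Ldb2 (ENSMUSG00000039706, chromosome 5 from 44472132 to 44799680) encodes a cofactor that bridges LIM-domain transcription factors. Ldb2 was at 144, 162, 152 and 159 CPM in the controls and at 85.3, 60.5, 99.4 and 73.5 CPM in the mutants. Replicate 3 was again the highest mutant, and all 4 were below the controls. Ldb2 had a log2 fold change of -0.95 ± 0.13 (SE, adjusted p = 1.53e-04, edgeR), with -1.07, -0.61 and -1.11 within lanes 5, 6 and 7.

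In the summed level of radial glia and astrocyte markers, mutant replicate 3 was also the highest mutant. These markers are therefore given beside Crym and Ldb2. Of 10 markers of radial glia and astrocytes, 1 was lower and 2 were higher in the mutants, and their summed level was 1701 to 1724 CPM in the controls and 1463, 1673, 2696 and 1278 CPM in mutant replicates 1 to 4. None of the 10 was at 0 in a sample. Without mutant replicate 3, 5 of the 10 glial markers were lower. That setting removes the mutant with the highest summed level, so it has to lower the mutant mean of the sum and is no test of a fall. The part of these markers in the level of Crym and Ldb2 in mutant replicate 3 was not tested.

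**Figure D2:**
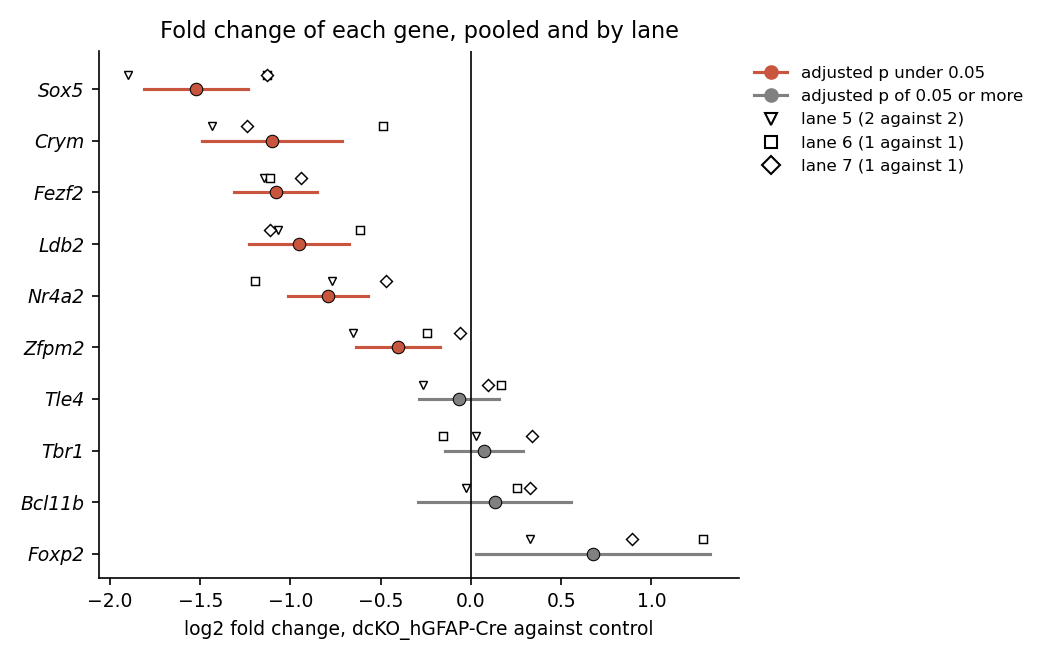
Log2 fold change of each deep-layer gene between dcKO_hGFAP-Cre and control (filled circles, horizontal lines the 95% interval of the edgeR fit, 4 samples against 4) with the log2 ratio of mean CPM within each sequencing lane (open symbols). Sox5 has the lowest value at -1.52 and Foxp2 the highest at 0.68, and the 6 genes that fell lie below 0 in every lane.

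Tbr1, Tle4, Bcl11b and Foxp2 did not pass the test, and their groups overlapped. Tbr1, the T-box factor of layer 6 and subplate neurons, lies on chromosome 2 from 61802930 to 61814114 (ENSMUSG00000035033). Tbr1 was at 193, 182, 183 and 188 CPM in the controls and at 189, 194, 165 and 237 CPM in the mutants. The controls were tightly grouped, and 1 mutant lay below them and 2 above. The log2 fold change of Tbr1 was 0.07 ± 0.10 (SE, adjusted p = 0.594, edgeR), with a 95% interval from -0.14 to 0.29, so a fold outside 0.906 to 1.22 lies beyond that interval. The exact two-sided permutation test gave p = 0.629.

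Tle4, a Groucho-family corepressor of corticothalamic neurons, lies on chromosome 19 from 14448150 to 14598051 (ENSMUSG00000024642). Tle4 was at 172, 141, 135 and 148 CPM in the controls and at 141, 119, 152 and 158 CPM in the mutants. Of the 4 mutants, 3 lay within the control range. For Tle4 the log2 fold change was -0.07 ± 0.10 (SE, adjusted p = 0.651, edgeR), with a 95% interval from -0.29 to 0.16, and its sign turned with library totals (0.05) and with single samples left out.

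Bcl11b, the zinc finger factor downstream of Fezf2, lies on chromosome 12 from 107910403 to 108003602 (ENSMUSG00000048251). Bcl11b was at 201, 205, 195 and 170 CPM in the controls and at 270, 129, 232 and 213 CPM in the mutants. Replicate 2 was below every control and the other 3 mutants were above every control, so the SD was 15.7 CPM in control and 59.7 CPM in the mutants. The log2 fold change of Bcl11b was 0.13 ± 0.19 (SE, adjusted p = 0.621, edgeR), with a 95% interval from -0.29 to 0.56. The exact two-sided permutation test gave p = 0.6. Without mutant replicate 2 Bcl11b passed the threshold with a log2 fold change of 0.30 (adjusted p = 0.0442, edgeR). That setting removes its lowest mutant, so it has to raise the fold change and is no test of a rise.

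Foxp2, a forkhead factor of layer 6 neurons, lies on chromosome 6 from 14901349 to 15441977 (ENSMUSG00000029563). Foxp2 was at 36.5, 38.8, 23.0 and 23.3 CPM in the controls and at 65.8, 28.7, 56.0 and 43.2 CPM in the mutants. Replicate 2 lay among the controls and the other 3 mutants above all of them. The controls split into a higher pair from lane 5 and a lower pair from lanes 6 and 7. Foxp2 had a log2 fold change of 0.68 ± 0.28 (SE, unadjusted p = 0.0428, adjusted p = 0.0944, edgeR), with 0.33, 1.29 and 0.89 within lanes 5, 6 and 7. The exact two-sided permutation test gave p = 0.114. Without mutant replicate 2 Foxp2 passed the threshold with a log2 fold change of 0.85 (adjusted p = 0.0221, edgeR). For Foxp2 too this removes the lowest mutant and has to raise the fold change, so it is no test of a rise.

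The mutants that were high or low in Bcl11b and Foxp2 were also high or low in the summed level of markers of striatal neurons. Of 12 markers of striatal neurons, 8 were higher in the mutants, 0 were lower and the median log2 fold change was 2.11. Their summed level was 227, 334, 240 and 232 CPM in control replicates 1 to 4 and 944, 466, 975 and 644 CPM in mutant replicates 1 to 4. Replicates 1 and 3 were the highest mutants in the striatal sum, in Bcl11b and in Foxp2, and replicate 2 was the lowest mutant in all 3. Ppp1r1b (DARPP-32), a phosphatase inhibitor of striatal neurons, rose by 2.92 ± 0.13 (SE) on the log2 scale (adjusted p = 4.54e-08, edgeR), from 40.8 ± 6.17 to 308 ± 39.9 CPM (SD, n = 4). It was at 343, 276, 342 and 271 CPM in mutant replicates 1 to 4, each above every control. Replicate 2 was thus not the lowest mutant for this marker, which alone gave 276 of the 466 CPM of its striatal sum. The median of the 12 markers against the control mean (log2 scale) was 0.34 in mutant replicate 2, below the 0.65 of control replicate 2. It was 1.65 to 2.63 in the other mutants. Isl1, a factor of developing striatal neurons, rose from 1.39 ± 1.30 to 14.3 ± 3.73 CPM (SD, n = 4), a log2 fold change of 3.43 ± 0.55 (SE, adjusted p = 0.00217, edgeR). Pde10a was at 114 ± 20.6 and 177 ± 73.7 CPM (SD, n = 4) and did not pass the test (adjusted p = 0.169, edgeR). No striatal marker was at 0 in any sample.

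The genes that fell were also tested with mutant replicates 1 and 3 left out, a choice made after the data were seen. That setting left Sox5 at -1.50, Crym at -1.33, Ldb2 at -1.20, Fezf2 at -1.05 and Nr4a2 at -0.67 on the log2 scale, all of which still passed, while Zfpm2 at -0.40 did not (adjusted p = 0.0657, edgeR). For Bcl11b, Foxp2 and Ldb2 it removes the 2 highest mutants, and for Crym it removes replicate 3, which stood well above the others. It therefore has to lower the fold changes of these genes, which deepens the falls of Ldb2 and Crym, and is no test of them. Without mutant replicates 1 and 2, the same 5 genes passed and Zfpm2 did not (-0.31, adjusted p = 0.159, edgeR). These 2 replicates held the highest levels of the choroid plexus marker Ttr. They were also the 2 lowest mutants for Zfpm2, Sox5, Fezf2 and Crym. Leaving them out therefore has to raise the fold changes of these genes, which shrinks the falls, and is no test of them. The summed level of 6 choroid plexus markers was 616, 1178, 21.1 and 4.59 CPM in mutant replicates 1 to 4 and 4.15 to 13.6 CPM in the controls, and 2 of the 6 were higher. Ttr, the thyroid hormone carrier that the choroid plexus secretes, was at 584, 1128, 15.8 and 1.72 CPM in the 4 mutants. The part of these markers in the levels of the deep-layer genes was not tested.

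**Figure D3:**
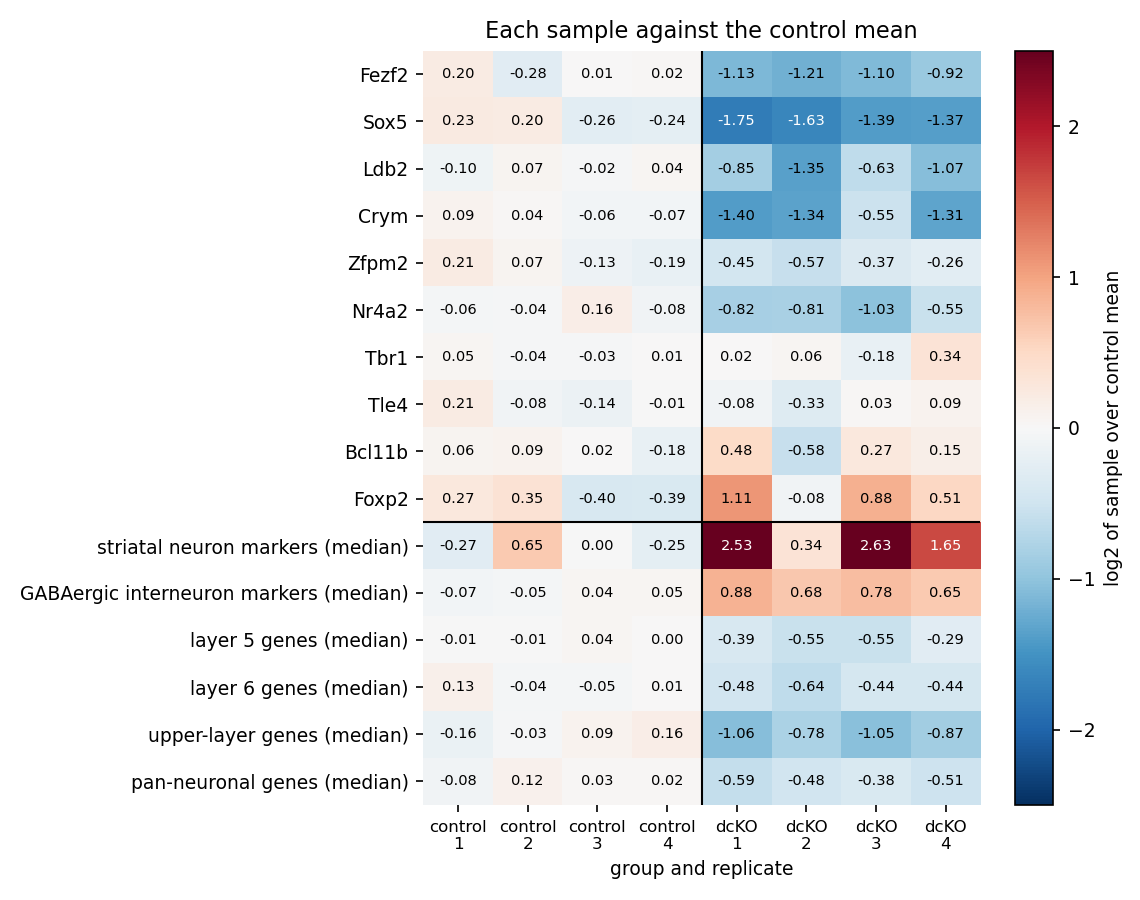
Heat map of each sample's level against the control mean (log2 scale, colour and printed value) for the 10 deep-layer genes above the line and, below it, for the median of 6 gene lists. Columns are the 4 control and 4 dcKO_hGFAP-Cre replicates. Bcl11b runs 0.48, -0.58, 0.27 and 0.15 and the striatal median 2.53, 0.34, 2.63 and 1.65 over mutant replicates 1 to 4, whereas Sox5 and Fezf2 are below -0.9 in all 4.

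Levels of different genes were compared per length, as TPM (counts per kilobase of annotated exon, scaled to the same total in each sample). In control cortex the order was Ldb2 (177 ± 8.73 TPM, SD, n = 4), Crym (135 ± 9.98), Tbr1 (130 ± 4.73), Tle4 (91.1 to 117 over the samples), Fezf2 (99.8 ± 13.6), Nr4a2 (95.1 ± 8.40), Bcl11b (91.0 ± 9.48), Sox5 (34.4 ± 6.98), Zfpm2 (17.7 ± 2.65) and Foxp2 (7.15 ± 2.12). The ranges of Crym and Tbr1 overlapped, as did those of each neighbouring pair from Tle4 to Bcl11b. In the mutants the order opened with Tbr1 (136 ± 26.7 TPM), Bcl11b (99.3 ± 31.3), Tle4 (94.9 ± 15.4) and Ldb2 (90.6 ± 19.5), which overlapped as neighbours. It went on with Crym (61.9 ± 18.0 TPM), Nr4a2 (54.5 ± 10.02), Fezf2 (46.8 ± 6.35), Zfpm2 (13.2 ± 1.83), Sox5 (11.8 ± 1.69) and Foxp2 (11.3 ± 4.03). Of the 9 neighbouring pairs in the mutants, only Fezf2 and Zfpm2 had ranges that lay apart.

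**Figure D4:**
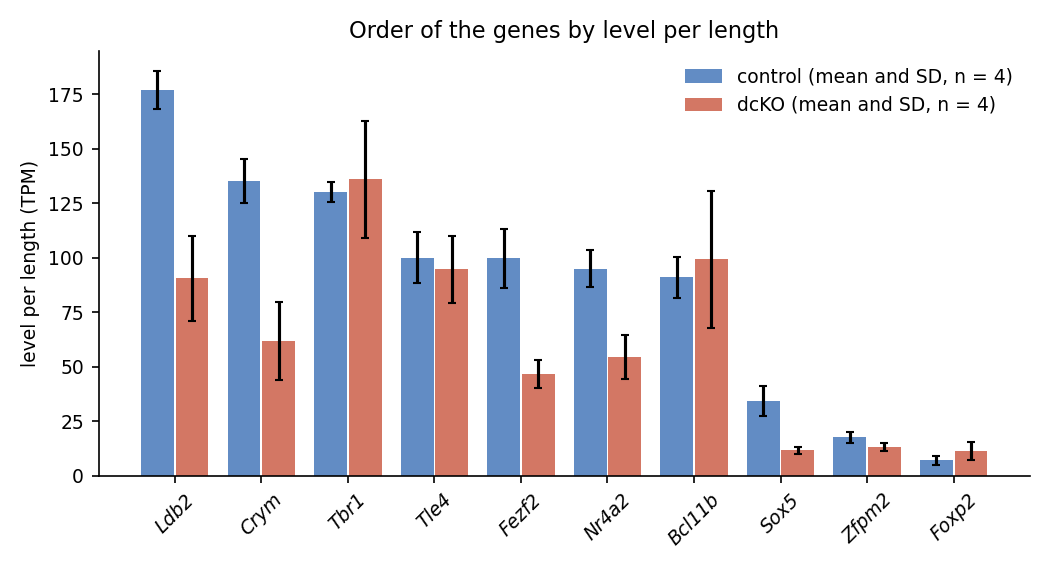
Level per length (TPM, mean and SD, n = 4 per group) of the 10 deep-layer genes, in the order of the control means. Ldb2 stands first in control at 177 TPM and at 90.6 TPM in dcKO_hGFAP-Cre, where Tbr1 stands first at 136 TPM.

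The balance between Bcl11b and Tbr1 was followed as their ratio within each sample, which does not depend on library scaling. The log2 ratio of Bcl11b to Tbr1 was 0.04 ± 0.13 in control and 0.07 ± 0.54 in the mutants (SD, n = 4), and the difference of 0.02 was well within that spread (exact two-sided permutation p = 0.971). Over the mutants it ran 0.52, -0.59, 0.49 and -0.15, against -0.15 to 0.17 in the controls.

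Further genes of the same neurons were taken from lists. Of 10 other genes of layer 5 subcerebral neurons, 6 were lower, 1 was higher and 3 did not pass, with a median log2 fold change of -0.46. Dkk3, a secreted protein of the Dickkopf family, fell by 2.06 ± 0.30 (SE, adjusted p = 0.00140, edgeR), Cntn6, an adhesion molecule, fell by 0.79, and Tcerg1l fell by 0.63. The cadherin Cdh13 was at 228 ± 17.6 and 203 ± 19.9 CPM (SD, n = 4) and did not pass. The one gene of that list that rose, Pcp4, a calmodulin-binding protein named here after its values were seen, was at 15.1 to 17.5 CPM in the controls and 27.0 to 45.3 CPM in the mutants (log2 fold change 0.97 ± 0.15).

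Of 8 other genes of layer 6 corticothalamic neurons, 6 were lower, 1 was higher and 1 did not pass, with a median of -0.49. Ntsr1, the neurotensin receptor that marks corticothalamic neurons, fell from 88.3 ± 11.9 to 19.2 ± 3.47 CPM (SD, n = 4), a log2 fold change of -2.20 ± 0.14 (SE, adjusted p = 9.50e-07, edgeR). Rprm, a cell cycle inhibitor, fell by 0.34, and the LIM-domain factor Lmo3 rose by 0.60 (adjusted p = 0.0174 and 3.25e-04, edgeR). The fall of Ntsr1 thus stood beside a Tbr1 level that did not pass the test in the same samples.

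Of 8 other subplate genes, 2 were lower, 1 was higher and 5 did not pass. Tmem163 fell by 1.03 and Cdh10 by 0.76 on the log2 scale, whereas the neurexophilin Nxph4 rose by 1.48 ± 0.11 (SE, adjusted p = 1.80e-06, edgeR), from 11.9 ± 0.802 to 33.2 ± 3.33 CPM (SD, n = 4). Of 12 partners of the network, mostly transcription factors and cofactors, 7 were lower, 2 were higher and 3 did not pass. Among them Tshz3, a zinc finger factor of projection neurons, fell by 1.01 and the LIM-domain factor Lmo4 fell by 0.57 (adjusted p = 3.85e-06 and 0.00237, edgeR). Sox11, a SoxC factor of young neurons, was at 436 ± 33.6 and 447 ± 41.2 CPM (SD, n = 4) and did not pass.

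**Figure D5:**
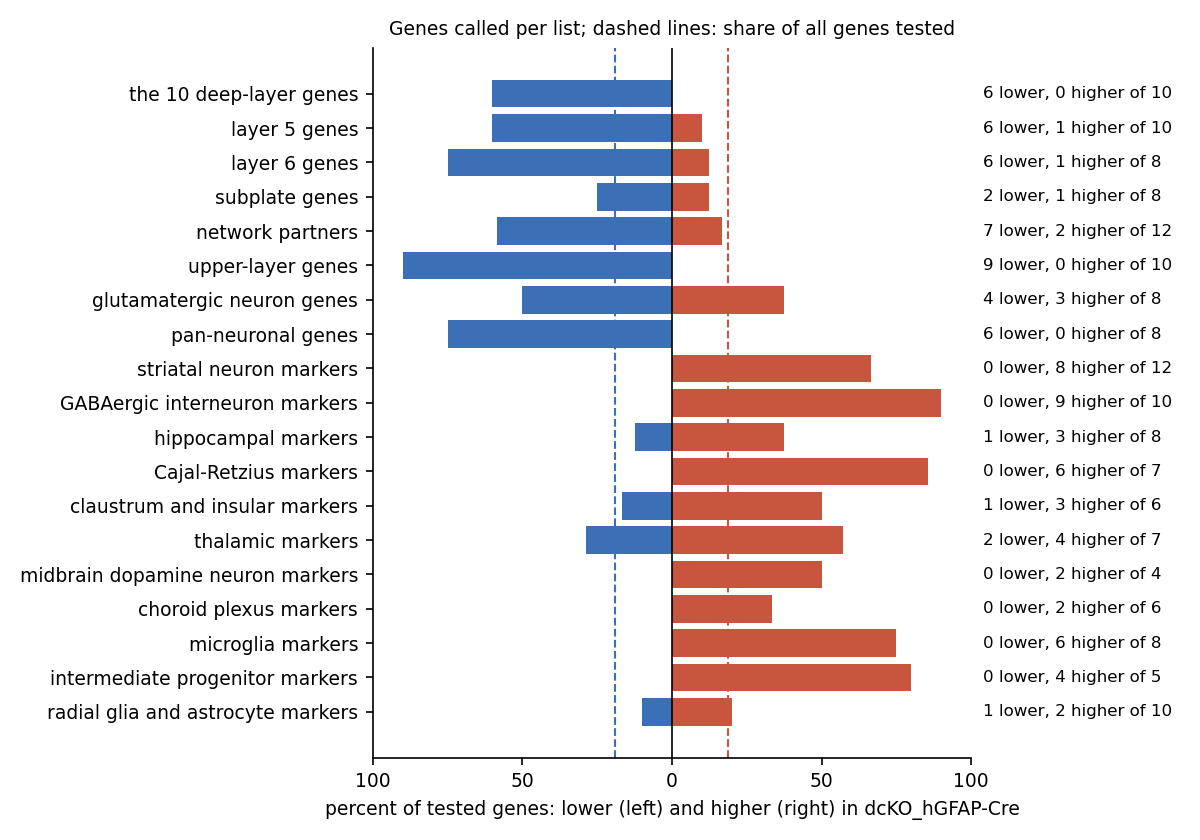
Share of the tested genes of each list that were lower (bars to the left) or higher (bars to the right) in dcKO_hGFAP-Cre at an adjusted p under 0.05, with the counts printed at the right. Dashed lines mark the shares over all 16525 genes tested, 18.9% lower and 18.6% higher. The lists of deep-layer, upper-layer and pan-neuronal genes lie mainly to the left and those of striatal, interneuron, Cajal-Retzius and microglia markers to the right.

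Falls were also counted in other neuronal lists. Of 10 upper-layer genes, 9 were lower and 0 higher, with a median log2 fold change of -0.97, among them Mdga1 at -1.48 and Pou3f3 at -0.70. Of 8 pan-neuronal genes 6 were lower and 0 higher, with a median of -0.50, close to the -0.60 of the 10 deep-layer genes. Rbfox3 (NeuN) fell by 1.12 and Tubb3 fell by 0.59 on the log2 scale (adjusted p = 2.19e-06 and 2.93e-04, edgeR). Of 8 genes of glutamatergic neurons 4 were lower and 3 higher, with a median of -0.10. Neurod6, a bHLH factor of cortical pyramidal neurons, fell by 2.04, Slc17a7, the vesicular glutamate transporter VGLUT1, fell by 0.80, and the kinase Camk2a rose by 0.24 (adjusted p = 1.37e-06, 1.00e-04 and 0.0127, edgeR). These cortical markers were present in every sample, with Neurod6 at 83.8 CPM in the lowest mutant and 378 CPM in the lowest control. Whether the 10 genes differ from general neuronal genes was not tested.

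In most of the lists counted here for other cell types that a cortical dissection could hold, markers moved mainly the other way. The radial glia and astrocyte list given above was mixed, with 1 lower and 2 higher of 10. Oligodendrocyte markers were not counted, and the study reports lower expression of key oligodendrocyte genes in the same mutants. Of 10 markers of GABAergic interneurons 9 were higher, with a summed level of 629 to 661 CPM in control and 985 to 1049 CPM in the mutants. Of 7 Cajal-Retzius markers 6 were higher, of 8 microglia markers 6, and of 5 tested markers of intermediate progenitors 4, with 0 lower in each. Of 8 hippocampal markers 3 were higher and 1 lower, and of 7 thalamic markers 4 were higher and 2 lower. For the 2 other sites of Nr4a2 expression, 3 of 6 claustrum and insular markers were higher and 1 lower, and 2 of 4 tested midbrain dopamine neuron markers were higher, at a summed level of 9.44 to 13.1 CPM in control and 12.8 to 13.5 CPM in the mutants. The 2 dopamine markers that rose were low in both groups: Th, the enzyme of dopamine synthesis, was at 0.438 ± 0.226 and 1.12 ± 0.409 CPM and the factor Lmx1a at 0.170 ± 0.103 and 1.79 ± 1.07 CPM (SD, n = 4; adjusted p = 0.0154 and 0.00125, edgeR). Slc18a2, the vesicular monoamine transporter, was at 9.91 ± 1.78 and 9.06 ± 1.15 CPM (SD, n = 4) and did not pass. The 3 markers of that list with too few counts to be tested, named for that reason, were En1, at a mean of 0.0530 CPM in control and 0.434 CPM in the mutants, and Pitx3 and Foxa2, at 0 in all controls and at most at 0.0302 and 0.0428 CPM in a mutant. The part of these cell types in the levels of the deep-layer genes was not tested.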

How the data were processed

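RNA sequencing of 4 control and 4 dcKO_hGFAP-Cre samples of P3 mouse cortex was analysed. The authors isolated RNA with TRIzol, prepared libraries with the TruSeq v2 kit, aligned to mm10 and counted with featureCounts, and deposited raw counts per gene, without normalization. The aligner, the annotation and the strand setting are not given in the sources used here. Of 48709 identifiers, 48349 were matched to GENCODE M21. Samples were grouped by their labels, which also give the lane (5 for replicates 1 and 2, 6 for replicate 3, 7 for replicate 4).

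The test was edgeR's quasi-likelihood F test (version 4.0.16, R 4.3.3) with robust dispersions, TMM scaling, the filter of filterByExpr (minimum count 10) and no block. Standard errors were derived from each log2 fold change with its F value, and 95% intervals from the t distribution on the fit's degrees of freedom. TPM used the union of annotated exons. Exact permutation tests used CPM, and correlations log2 CPM (prior count 2). Alternatives were DESeq2 (1.42.0), limma-voom (3.58.1), other scalings, filters and blocks, and samples left out. The scripts were tested on simulated data. The fewest counts of a deep-layer gene in a sample were 670, for Foxp2.

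The genes and lists were chosen with earlier results of these data known. Beside the 10 deep-layer genes, Smarcc1 and Smarcc2, genes could be named if they were among the 2 with the smallest p or the 2 with the highest mean CPM of a list, or the 3 most correlated with one of the 10. Only some of these are printed, mostly from the neuronal lists. Outside that rule, Pcp4, En1, Pitx3, Foxa2 and Sox5os1 are named. No pair of replicates agreed within sampling noise.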

Additional observations from a re-analysis of the deposited data

Results flagged for a closer look

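For the 10 deep-layer genes, Smarcc1 and Smarcc2, each group of 4 samples was examined for a sample far from the other 3, by Dixon's ratio of the gap to the range at its 95% critical value. Of 24 groups 2 held such a sample, where chance gives about 1.2. Crym was at 82.1 CPM in dcKO_hGFAP-Cre replicate 3, with 0.922 of the group's range lying between it and the nearest of the other mutants. Nr4a2 was at 113 CPM in control replicate 3, with a gap of 0.834 of the range. Both genes were lower in all 4 mutants than in all 4 controls, these samples included.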

How the results depend on the processing

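Fezf2, Sox5, Crym, Ldb2 and Nr4a2 were lower and past the threshold under all 8 other tools, scalings, filters and blocks and with each of the 8 samples left out. Zfpm2 was lower throughout, but did not pass with library totals (-0.29). It also did not pass without mutant replicates 1 and 2 (-0.31) or without mutant replicates 1 and 3 (-0.40). With library totals the median log2 fold change over all genes moved as well, from 0.02 to 0.15. Leaving out mutant replicates 1 and 2 removes the 2 lowest mutants for Zfpm2 and has to raise its fold change. Beyond this, the cause was not tested. The settings that leave out 2 mutants were chosen after the data were seen. With single samples left out the log2 fold change ran from -0.019 to 0.144 for Tbr1 and from -0.015 to 0.298 for Bcl11b. It ran from 0.49 to 0.85 for Foxp2 and from -0.111 to 0.005 for Tle4. The number of deep-layer genes called higher ran from 0 to 2. The 2 were Bcl11b and Foxp2 without mutant replicate 2, the lowest mutant of both. Without mutant replicates 1 and 3, its 2 highest mutants, Bcl11b was at -0.17, and Tle4 was at 0.054 with library totals and 0.056 without mutant replicates 1 and 2. The difference in the log2 ratio of Bcl11b to Tbr1 ran from -0.13 to 0.24. The numbers of replicates are shared between groups, but same-numbered samples did not deviate together (correlations 0.17, -0.07, 0.21 and -0.02), so they do not pair the samples; with the replicate number as a block 6 of the deep-layer genes were lower and 0 higher, as without it, and 2982 genes were lower and 2932 higher over the whole table, against 3128 and 3074 without the block. Without mutant replicates 1 and 2 these were 1581 and 1388. By longest transcript instead of exon union, Crym and Tbr1 changed places in control, and Bcl11b, Tle4, Ldb2, Zfpm2 and Foxp2 changed rank in the mutants. Library totals for the level per length were not run, since that level uses no TMM factor.

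Counts for the lists moved as follows. Layer 5 genes higher were 1, 2 with library totals and 1 to 2 with single samples left out. Subplate genes lower were 2, 4 with DESeq2 and with limma-voom, 5 without mutant replicates 1 and 3 and 2 to 4 with single samples left out, and subplate genes higher were 2 with library totals. Network partners higher were 1 without mutant replicates 1 and 2. Striatal markers higher were 8, 5 with the lane block, 5 with no filter, 4 with the replicate block, 4 without mutant replicates 1 and 3 (when 1 was lower) and 4 to 11 with single samples left out. Hippocampal markers lower were 0 and higher 5 with library totals, and 0 were lower without mutant replicates 1 and 2. Cajal-Retzius markers higher were 3, and microglia markers higher 3, without mutant replicates 1 and 2. Claustrum and insular markers lower were 2 with DESeq2, with limma-voom and without mutant replicates 1 and 3, and 1 to 2 with single samples left out. Thalamic markers lower were 1 with library totals. Midbrain dopamine markers higher were 0 with the stricter filter (at least 10 counts in each library), 1 without mutant replicates 1 and 3 and 1 to 3 with single samples left out. Choroid plexus markers higher were 5 with DESeq2, 1 with the stricter filter, 0 with limma-voom, 0 with no filter, 1 with the replicate block, 0 without mutant replicates 1 and 2, 1 without mutant replicates 1 and 3 and 0 to 5 with single samples left out. Radial glia and astrocyte markers lower were 3 with the lane block and with limma-voom, 2 with the replicate block, 5 without mutant replicates 1 and 3 and 1 to 5 with single samples left out.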

Other observations

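Over all genes tested, the patterns most like those of the 4 deep-layer genes whose groups overlapped were found by Pearson's correlation of log2 CPM over the 8 samples, as a description with no test, since each is the highest of many and the 8 libraries share the design. Tbr1 was closest to Vstm2b (r = 0.983), Zfp335 (0.970) and Plch2 (0.963). Bcl11b was closest to Neto1 (0.959), Gimap8 (0.946) and Syt2 (0.941). Foxp2 was closest to Rasgrp1 (0.972), D430036J16Rik (0.965) and Gm17300 (0.958), and Tle4 to 4930412C18Rik (0.967), Gm9833 (0.959) and Ahrr (0.949).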
